A study of Homo sapiens with 4 samples.

Results

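The 8 subunits of the cytosolic chaperonin CCT (also called TRiC) were examined in OVCAR8 cells, an established ovarian cancer line, with and without short hairpins against FAM49B. The members were the genes TCP1, CCT2, CCT3, CCT4, CCT5, CCT6A, CCT7 and CCT8, found by gene name in the deposited table, which made 8 of its 58735 genes. The control group, shCON, held 2 libraries from cells given a scrambled hairpin, whose genotype is labelled WT. The knockdown group, shFAM49B, held 2 libraries from cells given GIPZ hairpins against FAM49B. Per the labels' protocols the hairpin plasmids were transiently delivered by lipofection and the cells were collected 36 h later, while the series' design text describes the knockdown as stable, and the sources used here do not settle which holds. Neither the hairpin sequence nor the number of clones is given in the sources used here. Both groups share 1 culture protocol, and the only labelled difference between them was the hairpin. Whether the 2 libraries in each group were grown as separate cultures is not labelled. A p-value here thus covers the spread between the 4 samples alone, and that spread may be technical.

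CCT is built as a double ring in which each ring holds one copy of each of the paralogous subunits, and it folds newly made proteins inside its cavity with energy from ATP. Actin and tubulin are its best known clients, and many proteins with WD40 propellers, such as CDC20 and the G protein beta subunits, also depend on it. The chaperone prefoldin hands unfolded actin and tubulin to the ring, phosducin-like proteins modulate it, and tubulin cofactors take over folded tubulin to build the alpha-beta dimer. TCP1 encodes the alpha subunit, CCT2 beta, CCT3 gamma, CCT4 delta, CCT5 epsilon, CCT6A zeta, CCT7 eta and CCT8 theta. The genes lie apart in the genome (GRCh38, GENCODE 29): TCP1 (ENSG00000120438) at chr6:159778498-159789749, CCT2 (ENSG00000166226) at chr12:69585334-69601570, CCT3 (ENSG00000163468) at chr1:156308968-156367873 and CCT4 (ENSG00000115484) at chr2:61868089-61888804. CCT5 (ENSG00000150753) lies at chr5:10249921-10266412, CCT6A (ENSG00000146731) at chr7:56051630-56063989, CCT7 (ENSG00000135624) at chr2:73233420-73253021 and CCT8 (ENSG00000156261) at chr21:29055805-29073797.

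Since the subunits belong to 1 complex but are encoded by 8 separate genes, sequence before the start sites is shown for 3 of them. CCT3 had the largest rise described below, CCT8 the smallest among subunits with a sequence in the table, and TCP1 the most motif matches in a single window. The windows searched are the 250 bases before each RefSeq start of transcription (GRCh38.p14). RefSeq and GENCODE 29 starts differ, and 4 of the 9 windows, among them that of CCT3, lie wholly inside the GENCODE gene. The window of CCT5 holds 159 bases of its coding sequence and is therefore not the sequence before its first start. Printed is the longest stretch of each window that lies in no annotated exon, read 5′ to 3′ along the minus strand, on which all 3 genes lie, with capitals for matches to the motifs named after the sequences. The stretches lie at chr1:156338466-156338502 for CCT3, chr6:159789750-159789811 for TCP1 and chr21:29073798-29073898 for CCT8.
CCT3: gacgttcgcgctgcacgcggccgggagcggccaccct
TCP1: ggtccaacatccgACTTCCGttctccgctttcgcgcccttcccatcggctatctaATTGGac
CCT8: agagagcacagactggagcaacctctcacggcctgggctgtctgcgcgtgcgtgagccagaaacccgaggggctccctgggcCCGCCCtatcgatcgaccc

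Motifs were searched on both strands in the windows of the 7 subunits that matched the RefSeq table (9 windows, as CCT2 and CCT4 have 2 starts each), and no match overlapped another. The CCAAT box, bound by the factor NF-Y, was found for CCT2, CCT3, CCT8 and TCP1, and 32% of all 35116 windows of this length hold it. In CCT3 it occurred in the reverse orientation, ATTGG, 75 and 34 bases before the start, in TCP1 154 bases and in CCT8 63 bases before it. The GC box GGGCGG, bound by SP1-type factors, was found for the same 4 genes, against 42.6% of all windows. The ETS core CGGAAGT was found for CCT2, CCT7 and TCP1, against 5.69% of all windows, and TCP1 carried it in reverse, ACTTCCG, at 196 and 113 bases before the start. The heat shock core GAANNTTC, where N is any base, occurred in TCP1 as GAAGGTTC 231 bases before the start and in CCT2 as GAAATTTC, against 5.78% of all windows. The other arrangement of that core, TTCNNGAA, had a match in 0 of the 9 windows (6.62% of all windows), as did the E-box CACGTG (6.34% of all windows). The windows of CCT4 held no match to any of these motifs, nor did that of CCT5, which lies inside its gene as given above. In the printed stretches lie only the TCP1 matches at 196 and 154 bases and the GC box of CCT8 at 168 bases before the start. The other matches of CCT3, TCP1 and CCT8 lie outside these stretches, in parts of the windows that hold annotated exons. The motifs were chosen after the expression values were known, a match is a string of letters and no measured site, and CCT3 with the largest rise shared its 2 motif types with CCT8.

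The values are FPKM, a read count divided by gene length and by a depth factor of the library. They came from 15639559 and 16875353 reads in shCON and from 16288871 and 16290200 in shFAM49B, totals recovered from the whole-read steps of the deposited values. FAM49B (ENSG00000153310), the targeted gene, stood at 7.41 and 7.60 FPKM in shCON and at 1.06 and 1.02 FPKM in shFAM49B, a 7.21-fold lower mean. Of the 8 listed ovarian markers, PAX8, KRT7, MUC16 and MSLN were under 1 FPKM on average, so the ovarian label was met in part at most. KRT8, KRT18, EPCAM and WT1 were tested, of which KRT8 and WT1 did not pass. The simple epithelial keratin KRT8 stood at 41.7 and 39.2 FPKM in shCON and 37.4 and 38.4 FPKM in shFAM49B. Of the 4 tested ovarian markers 2 were called lower in shFAM49B: the adhesion protein gene EPCAM, at 2.94 and 2.96 FPKM against 0.129 and 0.345 FPKM (limma adjusted p = 0.00224), and the keratin KRT18, at 27.9 ± 0.218 FPKM against 23.6 ± 0.652 FPKM (SD, n = 2, limma adjusted p = 0.0249). Markers of stratified epithelium moved strongly with the groups. All 11 tested of 13 listed were lower in shFAM49B, and their summed level was 616 and 551 FPKM in shCON against 44.3 and 46.3 FPKM in shFAM49B. KRT5, a basal keratin, fell from 219 and 194 to 13.3 and 13.6 FPKM, and KRT6A from 96.1 and 81.7 to 2.72 and 4.04 FPKM. Summed fibroblast markers ranged from 6.35 to 6.98 FPKM, blood cell markers from 1.13 to 1.66 FPKM with HBB listed at 0 in all libraries, and endothelial markers from 0.190 to 0.479 FPKM. In bulk RNA, fewer cells of a type and less RNA per cell cannot be told apart, and the part of the keratin difference in the values below was not tested.

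All 8 subunits were higher in shFAM49B than in shCON as deposited, by 1.28- to 1.66-fold, although 4 of the 8 differences turned slightly negative under quantile normalization (described further on). CCT3, the gamma subunit, rose most. It stood at 191 and 185 FPKM in shCON and at 304 and 320.1 FPKM in shFAM49B, a difference of 0.73 (SE 0.0591) on the log2(FPKM + 1) scale (limma, adjusted p = 0.00188). The lower shFAM49B library lay far above the higher shCON library, and 4.40% of the 13775 tested genes had a larger log2 fold change. CCT6A, the zeta subunit, rose least, from 105 and 95.5 FPKM to 129 and 128 FPKM, with a log2 difference of 0.35 (SE 0.0667, limma adjusted p = 0.0122). Both of its shCON libraries stayed below both shFAM49B libraries, and 21.2% of tested genes had a log2 fold change above its own.

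The other 6 subunits lay close together, between 1.34- and 1.41-fold. CCT5, the epsilon subunit, stood at 58.1 and 57.0 FPKM in shCON and 80.4 and 81.7 FPKM in shFAM49B, a log2 difference of 0.49 (95% interval 0.36 to 0.62). TCP1, the alpha subunit, stood at 83.3 and 81.8 FPKM against 112 and 119 FPKM, a log2 difference of 0.48 (95% interval 0.33 to 0.62). CCT4, the delta subunit, stood at 206 and 192 FPKM against 272 and 275 FPKM, a log2 difference of 0.46 (95% interval 0.30 to 0.61). In each of these 3 genes the gap between groups was wider than the gap between libraries of a group. CCT7, the eta subunit, stood at 197 and 185 FPKM in shCON and 255 and 264 FPKM in shFAM49B, a log2 difference of 0.44 (95% interval 0.29 to 0.59). CCT2, the beta subunit, stood at 77.7 and 74.1 FPKM against 102 and 103 FPKM, a log2 difference of 0.43 (95% interval 0.30 to 0.57). CCT8, the theta subunit, stood at 95.3 and 94.1 FPKM against 127 and 127 FPKM, a log2 difference of 0.42 (95% interval 0.29 to 0.55). The libraries of CCT8 differed little within either group, and the intervals of these 6 genes overlapped each other throughout. The limma adjusted p of the 6 ranged from 0.00292 (CCT5) to 0.00514 (CCT7).

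**Figure D1:**
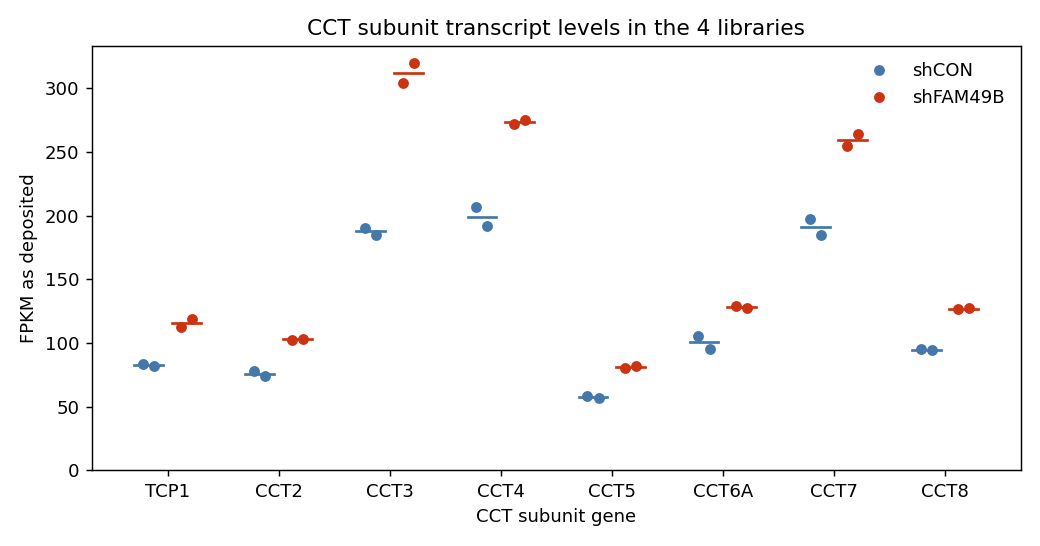
FPKM of each of the 8 CCT subunits in the 2 shCON and 2 shFAM49B libraries. Each point is 1 library and each line a group mean; both shFAM49B points lie above both shCON points for all 8 genes on the deposited scale, while quantile normalization turns the differences of CCT4, CCT6A, CCT7 and CCT8 slightly negative.

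These counts stand against a transcriptome in which many genes differed. Of 13775 tested genes, 26.4% were called higher and 15.8% lower, 42.2% in either direction, at an adjusted p under 0.05 in the same limma fit. Both shFAM49B libraries lay above both shCON libraries for 43.1% of tested genes, the pattern seen in 8 of 8 subunits, and below them for 31.6%. The median log2 fold change was 0.45 over the subunits and 0.05 over all tested genes.

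The background depended on how abundant a gene was, and the subunits are abundant. Among the 2433 genes with a mean of 1 to 2 FPKM the median log2 fold change was -0.09 and 6.45% were called higher. From there both figures rose with each step of level, to a median of 0.69 and 84.2% called higher among the 133 genes above 200 FPKM. Of the 719 genes averaging 50 FPKM or more, the range that holds all 8 subunits, 73.9% were called higher and 6.54% lower, and their median log2 fold change was 0.43 against 0.45 for the subunits. Each subunit lay between the lower and upper quartile of the genes of its own level. TCP1, CCT2 and CCT5 were above the median of 0.36 of the 403 genes between 50 and 100 FPKM. CCT6A and CCT8 were below the median of 0.48 of the 183 genes between 100 and 200 FPKM. Above 200 FPKM, CCT3 was above the median of 0.69, and CCT4 and CCT7 were below it. Against genes of their own level, the count of subunits called higher and their median were thus near the background. The level ranges were chosen after the values were seen.

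**Figure D2:**
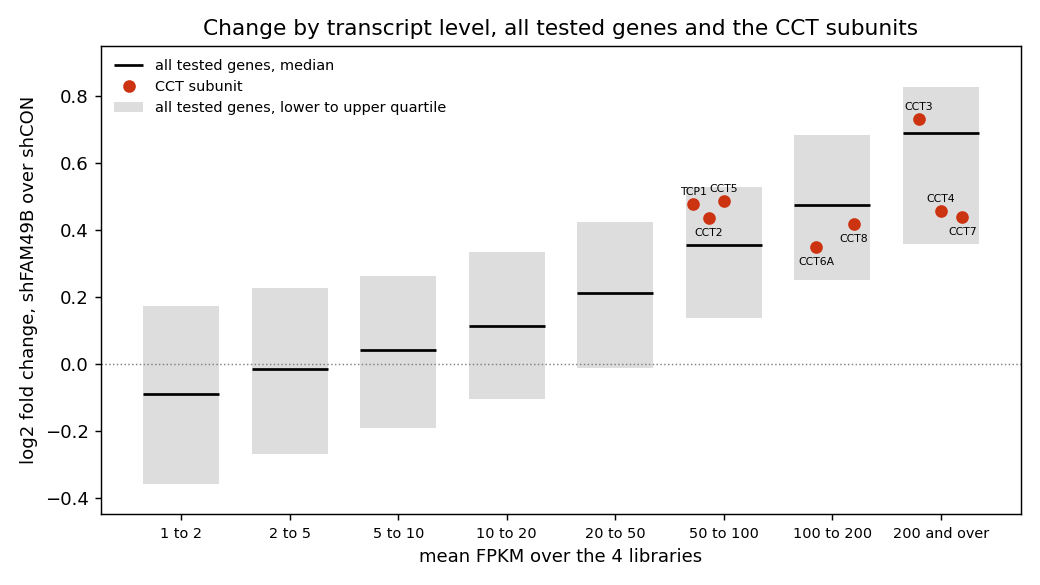
Log2 fold change (shFAM49B over shCON, log2(FPKM + 1) scale) in 8 ranges of mean FPKM. Grey boxes span the lower to upper quartile of all tested genes, black lines are their medians, and red points are the subunits. All 8 subunits lie inside the quartiles of their range, 4 above and 4 below its median; under quantile normalization 4 of the 8 differences are slightly negative.

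The size of the shift also depended on the scaling between libraries. The deposited values had been divided by 1.08 and 1.10 times the recovered reads in shCON and by 0.941 and 0.919 times in shFAM49B, which sets shFAM49B values higher than plain division by the reads. As TPM (FPKM with each library scaled to the same sum) the median log2 fold change of all tested genes was -0.17, and with plain division by the reads -0.13, against 0.05 as deposited. The median of the subunits was then 0.21 and 0.22, and relative to the median of all genes it was 0.37 and 0.35, against 0.39 as deposited. Relative to the median of genes of at least 50 FPKM it was only 0.016 and 0.017, against 0.019 as deposited. As TPM 7 of 8 subunits were called higher, against 11.6% of all tested genes and 47.1% of genes of at least 50 FPKM. With plain division by the reads 7 of 8 were called higher, against 12.5% and 49.4%. The subunit that did not pass in either case was CCT6A, with log2 differences of 0.11 (limma adjusted p = 0.1995) and 0.13 (adjusted p = 0.142). The split over all genes turned with it, from 3642 higher and 2170 lower as deposited to 1597 higher and 4362 lower as TPM.

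Quantile normalization, which forces the same distribution of values on every library and so removes shifts shared by genes of a level, left 2 of 8 subunits called higher, against 19.2% of all tested genes and 30.6% of those of at least 50 FPKM. These were CCT3, with a log2 difference of 0.18 (limma adjusted p = 0.0406), and CCT5, with 0.16 (adjusted p = 0.0414). TCP1 and CCT2 were at 0.12 and 0.09 and did not pass. CCT4 was at -0.11, CCT7 at -0.07, CCT6A at -0.06 and CCT8 at -0.0022, none of them past the threshold. The median of the subunits was 0.04, beside 0.02 for all genes and 0.05 for genes of at least 50 FPKM. Without the filter on low values, 7 of 8 subunits were called higher, against 6.67% of all genes and 55.4% of those of at least 50 FPKM, and CCT6A again missed the threshold. CCT6A also missed it when either shFAM49B library was left out (adjusted p = 0.0660 without replicate 1 and 0.0697 without replicate 2). CCT3 and CCT5 passed under all 5 scalings, and the share of all tested genes that did so is not given here.

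**Figure D3:**
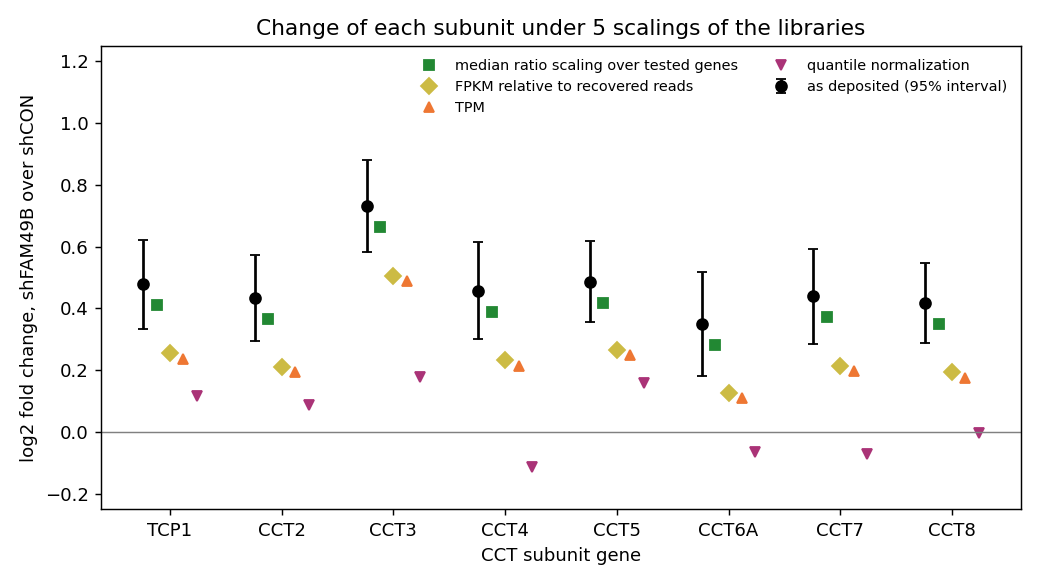
Log2 fold change of each subunit (shFAM49B over shCON) under the deposited scaling and 4 other scalings of the same libraries, with 95% intervals for the deposited scaling. The values drop together as TPM or per recovered read and lie around 0 under quantile normalization, where CCT3 and CCT5 alone passed the threshold and 4 subunits are slightly negative.

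Together the 8 subunits summed to 1014 and 964 FPKM in shCON and to 1381 and 1418 FPKM in shFAM49B. Counted as reads, they took 0.418% and 0.405% of all recovered reads in shCON and 0.499% and 0.500% in shFAM49B. This share is itself a scaling, the plain division by the reads given above. The exact 95% binomial (Clopper-Pearson) intervals, which cover counting error only, were 0.415% to 0.421% and 0.402% to 0.408% in shCON and 0.495% to 0.502% and 0.497% to 0.504% in shFAM49B. The shFAM49B libraries were higher on both of these scales. Reads on the subunits numbered 65325 and 68270 in shCON and 81202 and 81473 in shFAM49B. Neither scale removes shifts shared by genes of a level, as quantile normalization does. Mitochondrial RNA took 5.28% and 4.77% of reads in shCON and 4.56% and 4.63% in shFAM49B, but mitochondrial ribosomal RNA alone took 0.447% and 0.376% against 1.09% and 1.07%. The 10 most abundant genes took 5.96% and 5.61% against 7.20% and 7.31%. The part of any of these in the subunits' share was not tested.

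The order of the subunits was much the same in both groups, apart from CCT3. In shCON the mean levels per length ran CCT4 (199 ± 10.4 FPKM, SD, n = 2), CCT7 (191 ± 8.51), CCT3 (188 ± 4.19), CCT6A (100.4 ± 6.97), CCT8 (94.7 ± 0.807), TCP1 (82.6 ± 1.05), CCT2 (75.9 ± 2.58) and CCT5 (57.6 ± 0.798). CCT4 and CCT7 overlapped between libraries, as did CCT7 and CCT3, and CCT6A and CCT8 were apart only by 95.5 against 95.3 FPKM. In shFAM49B CCT3 came first (312 ± 11.4 FPKM, SD, n = 2), before CCT4 (274 ± 2.55), CCT7 (259 ± 6.13), CCT6A (128 ± 0.654), CCT8 (127 ± 0.367), TCP1 (115 ± 4.65), CCT2 (103 ± 0.702) and CCT5 (81.1 ± 0.948). No neighbours in that order overlapped, though CCT6A and CCT8 nearly touched. The highest subunit stood 3.46 times above the lowest in shCON and 3.85 times in shFAM49B.

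Part of that range came with the length used to scale the values. The deposited length is the summed exon length of the gene, from 2830 bases in CCT4 to 5839 in CCT5, whereas the coding lengths run only from 1593 bases in CCT6A to 1668 in TCP1. Per kilobase of coding sequence, an alternative chosen after the values were seen, the highest subunit stood 2.39 times above the lowest in shCON and 2.97 times in shFAM49B. On that scale CCT3 came first and CCT8 last in both groups, and CCT5 moved from last to the sixth place. A difference in level between subunits is therefore read here with its length scale. The ratio of a single subunit between groups does not depend on it, whereas order and shares do. Per kilobase of coding sequence, CCT6A and TCP1 exchanged places 4 and 5 between the groups. The share of CCT2 among the subunits changed by -0.392 points on that scale and by -0.322 points as FPKM.

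The balance among the subunits shifted towards CCT3. The log2 fold change of CCT3, 0.73, nonetheless lay between the quartiles, 0.36 and 0.83, of genes above 200 FPKM. How far shares shift within other sets of genes was not computed. CCT3 is taken first. Its share of the summed FPKM of the 8 subunits was 18.8% and 19.2% in shCON and 22.0% and 22.6% in shFAM49B, a gain of 3.32 percentage points. This share is taken within a library and does not depend on a factor between libraries. CCT6A lost most, from 10.4% and 9.91% to 9.31% and 9.00%, a difference of -0.989 points. CCT7, CCT4, CCT8 and CCT2 also held smaller shares in both shFAM49B libraries than in either shCON library, by -0.786, -0.570, -0.517 and -0.322 points. Such separation is frequent with 2 libraries per group. As FPKM, both shFAM49B libraries lay above both shCON libraries for 43.1% of tested genes and below them for 31.6%. No such background was computed for shares. TCP1 and CCT5 overlapped between the groups, with differences of -0.106 and -0.0320 points. Relative to the geometric mean of the other 7 subunits, CCT3 stood at log2 ratios of 0.84 and 0.86 in shCON and of 1.12 and 1.17 in shFAM49B. CCT6A stood at -0.14 and -0.22 against -0.30 and -0.35. Since shares sum to a whole, the others must lose when CCT3 gains, so the log2 ratios of the rest are given too. For each of them the other 7 include CCT3, so its rise lowers these ratios as well. A fall in them is thus not shown to be separate from the rise of CCT3. CCT4 overlapped between groups, with a difference of -0.02, as did TCP1 and CCT5 with 0.0052 and 0.02. CCT7 differed by -0.04, CCT2 by -0.04 and CCT8 by -0.06, each below shCON in both shFAM49B libraries. These shifts are given as values with no test; an exact 2-sided permutation test of 2 libraries against 2 cannot give a p below 0.333.

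**Figure D4:**
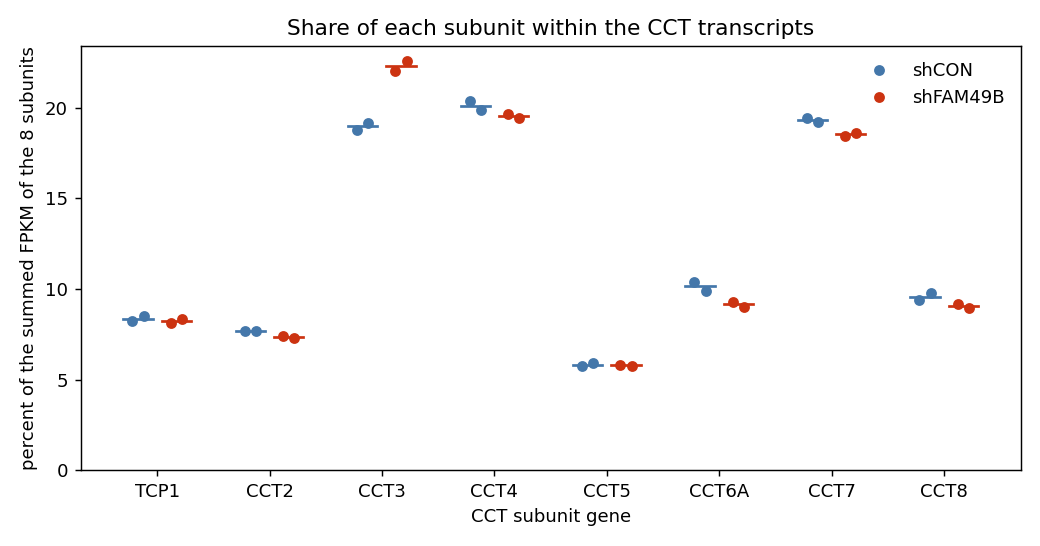
Share of each subunit in the summed FPKM of the 8 CCT subunits, in percent, for each of the 4 libraries (points) with group means (lines). CCT3 takes 18.8% and 19.2% in shCON and 22.0% and 22.6% in shFAM49B, and CCT6A has the largest loss.

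Reads from neighbouring and related genes could enter these values, since the strand setting of the counting is not given in the sources used here. CCT4 overlaps 2 genes on the opposite strand that were also higher in shFAM49B. COMMD1 went from 2.74 ± 0.0897 to 3.68 ± 0.190 FPKM (SD, n = 2, limma adjusted p = 0.0311), but did not pass when any 1 library was left out (adjusted p from 0.0745 to 0.144). The antisense gene AC107081.2 was listed at 0.813 and 0 FPKM in shCON and at 2.36 and 4.00 FPKM in shFAM49B (limma adjusted p = 0.0168). Without shFAM49B replicate 2, AC107081.2 no longer passed (adjusted p = 0.0944). Both lie far under CCT4 itself. TSACC, opposite CCT3, stood at 1.44 and 1.72 FPKM on average, and ACAT2, opposite TCP1, at 6.46 and 6.69 FPKM, and neither passed. Of the 13 annotated pseudogenes of the subunits, 4 were listed at 0 in all libraries and only CCT6P1 reached a mean of 1 FPKM, with 4.90 and 4.76 FPKM in shCON and 4.33 and 5.04 FPKM in shFAM49B. Reads shared by CCT6A and this unprocessed copy cannot be told apart here, but its level is small beside the 95.5 FPKM or more of CCT6A. CCT6B, the paralog of CCT6A, was under 1 FPKM in every library.

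Genes of the proteins that work with the ring were read from 9 companion lists. Their counts stand beside 26.4% of all tested genes called higher and 15.8% called lower, shares that change with level as given above, and no list was compared with genes of its own level. Of the 6 prefoldin subunits, 4 were called higher and 0 lower, with a median log2 fold change of 0.30. PFDN5 stood at 17.2 ± 1.36 FPKM in shCON and 27.6 ± 1.22 FPKM in shFAM49B (SD, n = 2), 1.61-fold higher (limma adjusted p = 0.00337). PFDN2 was 1.39-fold and PFDN1 1.22-fold higher. VBP1 (log2 difference 0.18) and PFDN4 (0.11) did not pass. As TPM a single prefoldin gene was called higher, beside 11.6% of all tested genes, with a prefoldin median of 0.08.

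Among the co-chaperones that bind CCT, 4 of 5 were tested, 1 was called higher and 1 lower. PDCD5, a small CCT-binding protein, was 1.55-fold higher, with 17.7 ± 0.699 against 27.3 ± 0.201 FPKM (SD, n = 2, limma adjusted p = 0.00242). TXNDC9, a phosducin-like protein that binds CCT, moved the other way, from 7.98 and 7.24 FPKM to 4.91 and 4.60 FPKM (log2 difference -0.58, limma adjusted p = 0.00467). The phosducin-like protein PDCL3 differed by 0.24 and did not pass (adjusted p = 0.0598). Of the 6 tested tubulin cofactors, which act after CCT, 4 were called higher and 1 lower, with a median of 0.33. ARL2, the small GTPase of the cofactor complex, rose 1.60-fold, TBCA 1.28-fold, and TBCB by 0.31 on the log2 scale, whereas TBCC fell by 0.41 on the log2 scale. As TPM 1 cofactor was called higher and 1 lower, beside 1597 and 4362 of all 13775 tested genes.

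Relatives of the CCT fold did not move as one. HSPD1, the chaperonin of mitochondria, was 1.59-fold higher and its lid HSPE1 1.56-fold higher (limma adjusted p = 0.00245 and 0.00320), although HSPD1 was at 0.02 under quantile normalization. The chaperonin-like genes MKKS, BBS10 and BBS12, which act in the assembly of the BBSome of cilia, had log2 differences of -0.26, -0.23 and -0.38. None of these 3 passed as deposited, and all 3 were called lower as TPM. Of all 13775 tested genes, 4362 were called lower as TPM, against 2170 as deposited.

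Of the 14 listed actin and tubulin clients, 12 were tested, with 7 called higher, 2 lower and a median of 0.39. ACTG1, cytoplasmic gamma actin, stood at 961 and 984 FPKM in shCON and at 1937 and 2053 FPKM in shFAM49B, 2.05-fold higher (limma adjusted p = 0.00147). ACTB, cytoplasmic beta actin, was 1.55-fold higher, but at 0.01 on the log2 scale under quantile normalization. TUBB, the main beta tubulin gene by level here, was 1.68-fold higher and TUBG1, gamma tubulin of the centrosome, 1.61-fold higher. TUBA4A and TUBB6 fell by 0.75 and 0.35 on the log2 scale. Actin and tubulin genes have many near-identical copies, so their split of reads is uncertain. Of 13 other clients, 8 were called higher and 0 lower, with a median of 0.32. The largest rises among them were those of GNB2, a G protein beta subunit (1.79-fold), and CDC20, the WD40 activator of the anaphase-promoting complex (1.66-fold). GNB1 was 1.39-fold higher, less than PLK1 (1.44-fold) and MLST8 (1.42-fold). VHL, CCNE1, FZR1, WRAP53 and PPP2R2A did not pass, with log2 differences from -0.09 to 0.15.

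The 3 listed regulators of chaperone genes were all called higher, beside 26.4% of all tested genes. They remained so under all 5 scalings, for which the share over all tested genes is not given here. MYC rose by 0.58 on the log2 scale, from 80.3 ± 4.14 to 120.5 ± 0.674 FPKM (SD, n = 2, limma adjusted p = 0.00276). HSF2 was 1.44-fold and HSF1, the main heat shock factor, 1.38-fold higher.

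For comparison, 2 other lists of protein handling genes were measured the same way. Of 10 cytosolic HSP70 and HSP90 chaperones, 7 were called higher and 1 lower, with a median of 0.44, but -0.08 under quantile normalization. Single members had larger log2 fold changes than any CCT subunit. DNAJB1, a co-chaperone of HSP70, rose 3.63-fold, the inducible HSPA1B 3.04-fold and the constitutive HSPA8 2.78-fold, whereas DNAJA1 fell by 0.49 on the log2 scale. HSPA1B shares nearly all its sequence with HSPA1A, so the split of reads between them is uncertain. Of 12 tested proteasome core subunits, another ring of many different subunits, 5 were called higher and 0 lower, with a median of 0.17. The other 2 of 14 listed averaged under 1 FPKM: PSMA2 at 0.677 and 0.569 FPKM in shCON and shFAM49B, and PSMA6 at 0.267 and 0.461 FPKM. PSMA7 of the same particle averaged 109 and 132 FPKM. The cause of these low values was not tested. PSMB3 was 1.55-fold, PSMB5 1.36-fold and PSMB6 1.24-fold higher, and the median turned to -0.08 as TPM. The difference between the lists was not tested. Over the 9 lists, 71 of 79 entries were tested, 41 were called higher and 5 lower, beside 26.4% and 15.8% of all tested genes. Of these 46, 23 passed in the same direction under all 5 scalings, while 5 changed sign under at least 1 of them. The matching shares over all tested genes are not given here, so these 2 counts have no background.

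**Figure D5:**
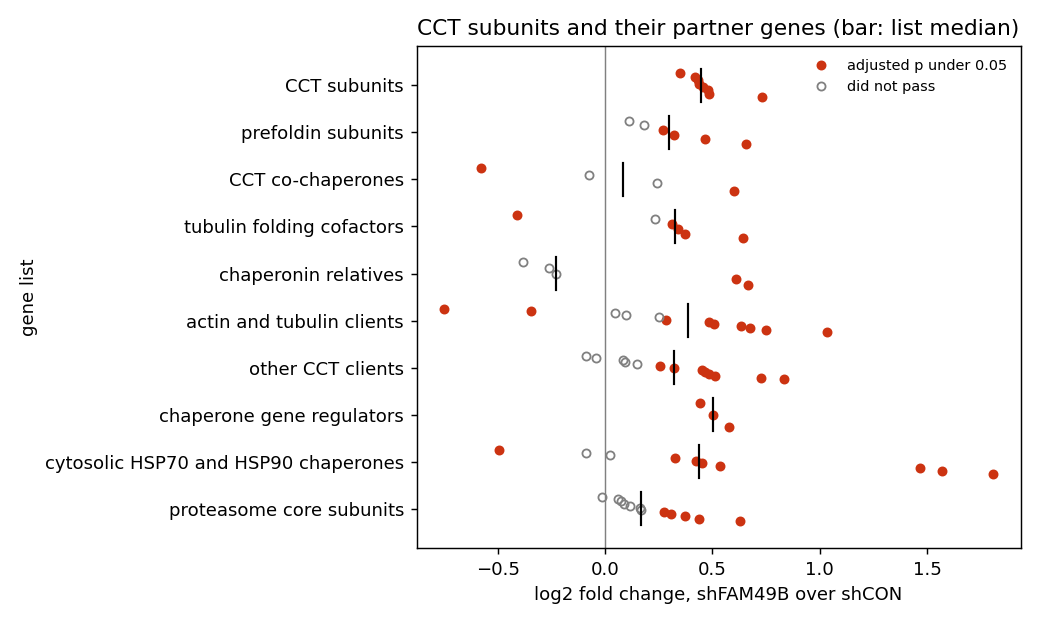
Log2 fold change (shFAM49B over shCON, log2(FPKM + 1) scale) of each tested gene in the CCT list and the 9 companion lists, 1 point per gene, as deposited, filled where the adjusted p was under 0.05, with list medians as bars. The 8 subunits lie between 0.35 and 0.73, while the HSP70 and HSP90 list runs from -0.49 to 1.81; under quantile normalization 4 subunits are slightly negative and the median of the HSP70 and HSP90 list is -0.08.

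Only tested protein-coding genes other than the subunits were searched for likeness to the mean profile of the subunits over the 4 libraries. The closest were MRPL48, FAM72D, GSTM4, PLXDC2 and HOXC10. All had differences between 0.46 and 0.48 on the log2(FPKM + 1) scale. The added 1 weighs on low values, so their ratios of FPKM are not those of the subunits. PLXDC2 averaged 0.728 FPKM in shCON and 1.39 FPKM in shFAM49B, GSTM4 1.88 and 2.99 FPKM, and HOXC10 11.0 and 15.5 FPKM. The root mean square difference from that profile on the log2 scale, over 4 libraries, was 0.00616 for MRPL48 and 0.00919 for HOXC10. The subunits themselves differed from their own mean profile by 0.0148 (CCT5) to 0.129 (CCT3). Since these libraries form only 2 groups, likeness over them is a description of a shared step between the groups.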

How the data were processed

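RNA of OVCAR8 cells was sequenced in 2 libraries of shCON and 2 of shFAM49B, grouped by their titles. Per the labels' protocols, the NEBNext Ultra kit turned total RNA into libraries. The deposited table gives FPKM per gene with coordinates and length, per the file headers; aligner and counter: not given in the sources used here. GRCm38 and mm10, both mouse builds, are named in the submitters' processing notes, but all 58735 identifiers are human ones of GENCODE 29, so coordinates are GRCh38. FPKM values were whole multiples of the worth of 1 read for 100% of values (tolerance 0.001 of a read), so reads were recovered; 3 reads in 1 kb equal 0.162 to 0.200 FPKM. The libraries of a group differed by more than sampling noise (mean chi-square per gene 3.48 to 3.90) and were kept as separate replicates.

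The 13775 genes averaging 1 FPKM or more were tested on log2(FPKM + 1) with limma 3.58.1 (R 4.3.3), using moderation along the mean-variance trend, 2-sided, Benjamini-Hochberg adjusted over all tested genes, at a threshold of 0.05. Every adjusted p is from this fit unless another setting is named. Log2 fold changes are on that scale, while folds are ratios of mean FPKM. The procedure was also run on simulated reads with known folds. That simulation held no shift by level and no difference in scaling between libraries, so it does not bear on either. Named were all subunits, FAM49B, overlapping genes and pseudogenes of at least 1 FPKM, the 3 genes of smallest p in each companion list, KRT5, KRT6A, top markers and the 5 closest profiles; further names give exceptions or ranges and were chosen after values were seen, as were the sequence motifs. Members and lists were chosen with earlier results of these data known. Same-numbered libraries did not deviate together (correlation -0.0132), so the numbers were not taken to pair them. Alternatives covered pseudocount, filter, scaling, test, a replicate block and leaving out each library.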

Additional observations from a re-analysis of the deposited data

How the results depend on the processing

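The count of 8 subunits called higher stayed at 7 or 8 in all alternatives except quantile normalization (2), and their median log2 fold change moved to 0.21 as TPM, 0.22 per recovered read, 0.38 with median ratio scaling, 0.042 with quantile normalization and 0.37 with limma voom on recovered reads, and lay between 0.41 and 0.49 when a library was left out. Quantile normalization reversed CCT4 (-0.11), CCT6A (-0.065), CCT7 (-0.072) and CCT8 (-0.0022); the cause was not tested. Over all genes the counts higher and lower were 2185 and 1378 with no filter, 1597 and 4362 as TPM, 1722 and 4173 per recovered read, and 531 and 47 among genes of at least 50 FPKM, an alternative chosen after seeing the data. Lower calls were 1322 with a minimum of 5 FPKM and 3514 with voom. Leaving out a library gave 1897 to 2495 higher and 1027 to 1529 lower, with fewer samples in the fit, the lone library of a group being assumed to vary like the other group. Companion genes (41 higher, 5 lower) gave 26 and 15 as TPM, 27 and 14 per recovered read, 19 and 11 with quantile normalization, 3 lower with no filter, 10 lower with voom, and 27 to 34 higher and 3 to 5 lower without a library. With the replicate block, 8 of 8 subunits, 39 and 5 companion genes, and 3429 and 2036 of all genes were called higher and lower. The share change of TCP1 ran from -0.242 to 0.0294 points without a library, turning positive without shCON replicate 2 (0.0294) or shFAM49B replicate 1 (0.0199). That of CCT5 ran from -0.122 to 0.0580, positive without shCON replicate 2. The share of CCT2 differed by -0.390 points when counted in reads. ACAT2, never past the threshold, was at -0.18 as TPM, -0.15 per recovered read, -0.013 with median ratio scaling and -0.022 with voom, and ran from -0.050 (without shCON replicate 2) to 0.14 when a library was left out. COL1A1 was at -0.086 as TPM and -0.060 per recovered read, and CCT6P1 ran from -0.13 to 0.052 (without shFAM49B replicate 1) when a library was left out. Each subunit had 5369 or more reads in a library, and each group 2 libraries.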
